A study of Mus musculus with 32 samples.

Results

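Brown adipose tissue of mice that lack ChREBP in the whole body was compared with that of their wild-type (WT) littermates, gene by gene. The 8 total ChREBP-KO arrays and the 8 arrays of their WT littermates were picked by the genotype in the sample titles, and they are 16 of 32 arrays. The other 16 come from a line that lacks the ChREBPβ isoform alone, and from its own WT littermates. All were single-colour Agilent arrays of interscapular brown fat of C57BL6/J mice, which the study describes as males. Total ChREBP-KO mice carry a null Mlxipl gene and so lack the α and the β isoform in every tissue, not in brown fat alone. Mice of both genotypes ate a regular diet, were fasted for 24 h and were then refed for 18 h with food and water holding 20% glucose. Their age was not analysed here. The study counts its n in animals, so the arrays of a group are taken here as separate mice, although the labels only number them.

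ChREBP, encoded by Mlxipl, is a transcription factor that is activated by glucose metabolites and binds DNA together with its partner Mlx. In liver and fat it is known for switching on genes of sugar use and of fatty acid synthesis after a carbohydrate meal. Brown fat burns fatty acids and glucose to make heat through the uncoupling protein Ucp1, and after refeeding it also makes fat from glucose at a high rate.

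The targeted gene was measured by 3 probes on chromosome 5 (mm9). On the brightest, at 135613705 to 135613764, the log2 intensity was 15.95 to 16.31 (median 16.16) in WT and 13.48 to 13.86 (median 13.61) in KO. All KO arrays lay below all WT arrays, and the log2 fold change was -2.48 ± 0.07 (SE), adjusted p = 4.79e-24, a 5.58-fold lower signal. A second probe was lower by a log2 fold change of -0.78, and the third, at 135614195 to 135614252, was not called (0.13, adjusted p = 0.0877). The probes of the gene did not move alike, and each still gave a signal well above background on the 8 KO arrays.

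Between 64.4 and 71.1% of the spots of an array were well above background, and 0 were saturated. Markers of the labelled tissue were present on every array, with Ucp1 at 18.51 to 18.62 (median 18.54) in WT and 18.34 to 18.53 (median 18.48) in KO. Transcripts typical of skeletal muscle and of liver gave signal too, and their source was not tested. The mean log2 intensity of the 34 skeletal muscle markers lay between 11.26 and 14.44 in WT and between 12.75 and 14.27 in KO, the lowest being WT replicate 8. For the 17 liver markers it lay between 6.49 and 10.20 in WT and between 6.36 and 8.36 in KO, the highest being WT replicate 2. None of the muscle markers was called by limma's moderated test, and 2 liver markers were, Apoc3 (-1.58) and Kng1 (0.51). The 415 genes whose deviations within groups followed either list (correlation over 0.7) were left out of the genes named by size alone, and 27 of them were called. Those that belong to a pathway list were counted with it. Muscle and liver are also organs that lack ChREBP in these animals, so that a change of their transcripts cannot be assigned to brown fat.

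A gene was called when its brightest probe differed between KO and WT at an adjusted p under 0.05 (limma, Benjamini-Hochberg over all probes). This held for 10840 of 24521 genes (44.2%), 5612 higher in KO (22.9%) and 5228 lower (21.3%), while the median log2 fold change over all genes was 0.01. Many of these changes were small: 2479 genes (10.1%) also differed by at least 1.5-fold, 1179 higher (4.81%) and 1300 lower (5.3%). At least 4-fold changes were more often decreases, 100 lower against 55 higher. The KO and WT arrays did not overlap at all in 16.7% of genes. Because the background is this high, the lists below, chosen by function, are read against these shares. Some calls are also given with slide as a block. In this line a single slide held both genotypes, with KO replicate 2 and WT replicate 3. The KO effect under that setting rests on this pair and on links through arrays of the ChREBPβ line. Genotype and slide are therefore hard to separate, and a call lost there does not by itself mark a slide effect.

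**Figure D1:**
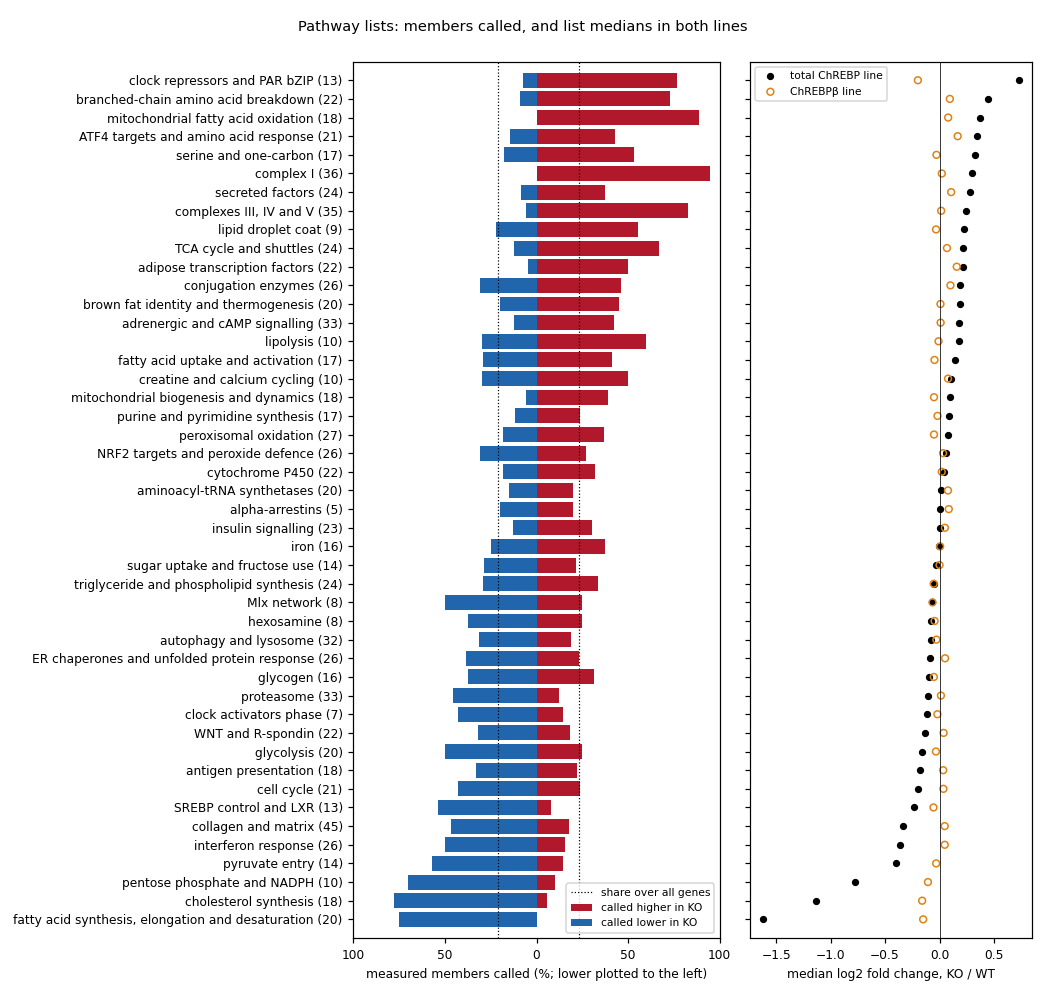
Left, the share of the measured members (in percent, member number in brackets) of 46 pathway lists that was called higher (red) or lower (blue) in total ChREBP KO, with dotted lines at the shares over all genes, 22.9% and 21.3%. Right, the median log2 fold change of each list in the total ChREBP line (filled) and in the ChREBPβ line (open), which ranged in the total line from -1.62 for fatty acid synthesis to 0.73 for clock repressors.

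The strongest shift lay in the making of fatty acids. Of 20 measured genes of fatty acid synthesis, elongation and desaturation, 15 fell and 0 rose, and 14 fell by at least 1.5-fold. Their median log2 fold change was -1.62, and within the 4 wash batches it ranged from -1.95 to -1.37. Acly, ATP citrate lyase, which splits citrate into acetyl-CoA, lay between 18.15 and 18.33 (median 18.21) on the WT arrays and between 14.24 and 15.01 (median 14.62) on the KO arrays. The genotypes were far apart, with a log2 fold change of -3.61 ± 0.08 (SE), adjusted p = 5.96e-26, or 12.2-fold lower. Acaca, the acetyl-CoA carboxylase of the committed step, lay between 17.42 and 17.78 (median 17.49) on the WT arrays and between 13.67 and 14.34 (median 13.94) on the KO arrays, and its log2 fold change was -3.52 ± 0.08 (SE), adjusted p = 6.04e-27. Elovl3, a fatty acid elongase that is abundant in brown fat, lay between 13.63 and 14.69 (median 14.01) on the WT arrays and between 9.87 and 12.28 (median 10.81) on the KO arrays (log2 fold change -3.16 ± 0.40 (SE), adjusted p = 1.07e-07). For these genes no KO array reached the lowest WT array. The mitochondrial citrate carrier Slc25a1 (-2.40), the elongase Elovl6 (-2.45), fatty acid synthase Fasn (-1.77) and the desaturases Scd1 (-1.73), Scd2 (-1.52) and Scd3 (-2.71) fell as well, as did Acss2 (-1.40), which activates acetate. Thrsp (-2.11) and the related gene Mid1ip1 (-2.02) fell to a similar degree. Among the 20 genes, 5 were not called: Elovl7 (-0.21), Elovl1 (-0.12), Fads1 (0.03), Mcat (0.09) and Scd4 (0.25). Fasn lay near the top of the intensity range.

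The steps that carry glucose to this pathway changed unevenly. Of 14 genes of sugar uptake and fructose use, 4 fell and 3 rose, and 3 followed the muscle or liver markers. The insulin-responsive glucose transporter Slc2a4 lay between 16.40 and 16.62 (median 16.49) on the WT arrays and between 15.40 and 15.65 (median 15.60) on the KO arrays, and the genotypes did not overlap (log2 fold change -0.93 ± 0.04 (SE), adjusted p = 1.98e-17). The transporters Slc2a1 and Slc2a3, by contrast, rose, with log2 fold changes of 0.77 and 0.58. Ketohexokinase, Khk, the enzyme of the first step of fructose use, was not called (0.19), although the fructose transporter Slc2a5 showed the largest decrease of all named genes (-9.00, with 6 of 8 KO arrays well above background).

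In glycolysis 10 of 20 genes fell and 5 rose (median -0.16). Hexokinase 2, Hk2, which traps glucose in the cell, lay between 14.87 and 15.11 (median 14.90) on the WT arrays and between 12.73 and 13.22 (median 13.10) on the KO arrays, a log2 fold change of -1.92 ± 0.07 (SE), adjusted p = 1.24e-20. Gpi1 (-1.08), the phosphofructokinases Pfkl (-0.88) and Pfkp (-0.73), enolase Eno1 (-0.78) and pyruvate kinase Pkm (-0.47) fell less. The members that rose stood in the middle and at the end of the pathway: Tpi1 (0.44), Pgk1 (0.20, adjusted p = 0.149 with slide as a block), Pgam1 (0.26) and Ldhb (0.69), the heart-type lactate dehydrogenase, besides the regulatory enzyme Pfkfb1 (0.69). Ldha, the muscle-type lactate dehydrogenase, fell by 0.41 on the log2 scale.

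Genes of pyruvate entry into the mitochondrion fell more evenly, with 8 of 14 genes lower and 2 higher. Pdk1, a kinase that switches pyruvate dehydrogenase off, lay between 11.72 and 11.95 (median 11.83) on the WT arrays and between 9.19 and 9.82 (median 9.43) on the KO arrays (log2 fold change -2.35 ± 0.09 (SE), adjusted p = 1.36e-20). Both subunits of the mitochondrial pyruvate carrier, Mpc1 (-0.78) and Mpc2 (-0.66), fell, and so did the pyruvate dehydrogenase subunits Pdha1 (-0.99), Pdhb (-0.77) and Dlat (-0.65) and pyruvate carboxylase Pcx (-0.49). The enzyme complex and its kinase moved in the same direction. Pdk4, the kinase known to rise in fasting, was not called (-0.19), and Pdk2 rose slightly (0.28).

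NADPH for fat synthesis comes from the pentose phosphate pathway and malic enzyme, and 7 of these 10 genes fell while 1, Pgls (0.60), rose. Malic enzyme Me1 lay between 17.00 and 17.62 (median 17.12) on the WT arrays and between 14.26 and 15.15 (median 14.55) on the KO arrays (log2 fold change -2.59 ± 0.12 (SE), adjusted p = 4.26e-18). Rpia (-1.72), Pgd (-1.68), transketolase Tkt (-1.25) and transaldolase Taldo1 (-0.87) followed, each with KO and WT arrays apart. G6pdx, the enzyme of the first step, changed least of those called (-0.34), and its groups overlapped.

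**Figure D2:**
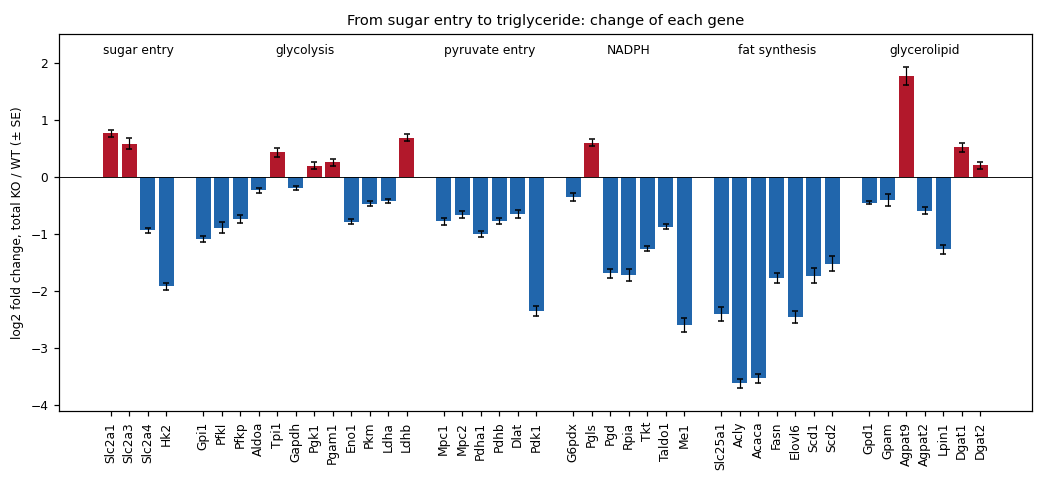
Log2 fold change of KO over WT for called genes from sugar entry to triglyceride, in the order of the pathway; bars start at 0, whiskers are 1 SE, red is higher and blue lower in KO. Among the genes drawn, Acly (-3.61) and Acaca (-3.52) have the lowest bars, whereas the glycerolipid genes held changes of both signs, from -1.27 for Lpin1 to 1.78 for Agpat9.

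Glycogen genes moved in both directions, 6 lower and 5 higher of 16. The liver-type glycogen phosphorylase Pygl, which releases glucose units, lay between 16.52 and 16.79 (median 16.59) on the WT arrays and between 13.65 and 14.17 (median 13.81) on the KO arrays (log2 fold change -2.77 ± 0.06 (SE), adjusted p = 1.80e-26). The branching enzyme Gbe1 (-1.66) and Ugp2 (-0.70), which makes UDP-glucose, fell too. In contrast, the brain-type phosphorylase Pygb rose (1.02), as did the glycogen-binding protein Stbd1 (1.45), and the synthase Gys1 was not called (0.12). In the neighbouring hexosamine pathway, Pgm3 fell by 1.79 on the log2 scale, and 3 of 8 genes were not called. Among the partners and relatives of ChREBP, Mlx (-0.71), Max (-0.55) and Mlxip (-0.33) fell and Mxd1 (0.55) rose, 4 lower and 2 higher of 8.

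Cholesterol synthesis fell almost as uniformly as fatty acid synthesis. Of 18 genes, 14 were lower, 13 of them by at least 1.5-fold, and 1, Ebp (0.29), was higher. The median was -1.14, between -1.24 and -0.94 within the wash batches. Sc5d, a desaturase of a late step, lay between 13.91 and 14.28 (median 14.15) on the WT arrays and between 11.88 and 12.59 (median 12.21) on the KO arrays (log2 fold change -1.93 ± 0.11 (SE), adjusted p = 1.38e-15). Sqle, squalene epoxidase, lay between 12.37 and 12.89 (median 12.61) on the WT arrays and between 10.75 and 11.39 (median 10.87) on the KO arrays (log2 fold change -1.64 ± 0.13 (SE), adjusted p = 4.90e-12), and again no KO array reached the lowest WT array. Mvd (-1.48), Dhcr7 (-1.42), Cyp51 (-1.36), Fdps (-1.16) and Lss (-1.02) fell less. An early enzyme, Hmgcs1, was not called (0.03). The regulators showed smaller changes: Srebf1 (-1.04), the sterol carrier Stard4 (-1.24) and the site 2 protease Mbtps2 (-0.62) fell, Insig1 (-0.54) and Insig2 (-0.39) fell, and Srebf2 (-0.04) and Scap (0.07) were not called. The call of Insig1 was lost with slide as a block (adjusted p = 0.167).

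Assembly of glycerolipids did not share this uniform decrease, with 8 genes higher and 7 lower of 24. Agpat9, a glycerol-3-phosphate acyltransferase, lay between 10.61 and 12.24 (median 11.14) on the WT arrays and between 12.40 and 13.32 (median 13.05) on the KO arrays (log2 fold change 1.78 ± 0.16 (SE), adjusted p = 9.28e-11), whereas the phosphatidate phosphatase Lpin1 lay between 14.17 and 14.54 (median 14.35) on the WT arrays and between 12.80 and 13.28 (median 13.09) on the KO arrays (log2 fold change -1.27 ± 0.08 (SE), adjusted p = 3.74e-14). Gpd1 (-0.45), Gpam (-0.40) and Agpat2 (-0.59) fell slightly, and Dgat1 (0.52) and Dgat2 (0.20), which add the last fatty acid, rose. Gpd2, which moves electrons from glycerol-3-phosphate into the respiratory chain, fell (-1.73). The lipid droplet coat was remodelled in its relative transcript levels: Plin2 lay between 16.88 and 17.28 (median 17.04) on the WT arrays and between 15.38 and 15.84 (median 15.72) on the KO arrays (log2 fold change -1.41 ± 0.07 (SE), adjusted p = 1.44e-17), while Plin1 (0.33), Plin3 (0.44), Plin4 (0.80) and Cidec (0.57) rose and Plin5 was not called (0.08).

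Genes that take up and activate fatty acids moved in both directions (7 higher, 5 lower of 17). Lipoprotein lipase, Lpl, which frees fatty acids from circulating lipoproteins, lay between 16.04 and 16.85 (median 16.19) on the WT arrays and between 17.07 and 17.45 (median 17.31) on the KO arrays (log2 fold change 0.97 ± 0.10 (SE), adjusted p = 1.33e-09). The fatty acid binding protein Fabp3 lay between 15.29 and 16 (median 15.62) on the WT arrays and between 17.60 and 17.83 (median 17.75) on the KO arrays (log2 fold change 2.09 ± 0.10 (SE), adjusted p = 9.72e-18). For both, all KO arrays lay above all WT arrays. Acsl1, the acyl-CoA synthetase linked to oxidation in brown fat, rose (0.81), and Acsl5 fell more than any other member (-3.39 ± 0.20 (SE), adjusted p = 6.19e-15). Fabp5 (-1.54), Slc27a1 (-0.87), Acsl3 (-0.79) and Acsl4 (-0.62) fell, and Slc27a2 (0.94) and the lipase maturation factor Lmf1 (0.68) rose. In lipolysis, Ces1d (0.82), Aqp7 (0.41), Abhd5 (0.36) and Pnpla2 (0.16) rose, hormone-sensitive lipase Lipe was not called (-0.19), and the inhibitor of Pnpla2, G0s2, fell (-0.77). The decrease of G0s2 was not called with slide as a block (adjusted p = 0.0563).

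Mitochondrial fatty acid oxidation rose broadly and modestly. Of 18 genes, 16 rose and 0 fell, with a median of 0.37 and 3 changes of at least 1.5-fold. Those 3 were both subunits of the electron transfer flavoprotein, Etfb and Etfa, and the isomerase Eci1. Etfb lay between 16.64 and 17.04 (median 16.86) on the WT arrays and between 17.48 and 17.78 (median 17.66) on the KO arrays (log2 fold change 0.78 ± 0.05 (SE), adjusted p = 5.36e-14), Eci1 lay between 15.98 and 16.43 (median 16.26) on the WT arrays and between 16.84 and 17.04 (median 16.94) on the KO arrays (log2 fold change 0.70 ± 0.05 (SE), adjusted p = 2.50e-12) and Etfa reached 0.67. The acyl-CoA dehydrogenases Acadm (0.48), Acads (0.47), Acadvl (0.31) and Acadl (0.23) and the carnitine enzymes Cpt1b (0.42) and Cpt2 (0.39) rose, while the trifunctional protein subunits Hadha (-0.12) and Hadhb (0.04) were not called. With the processed signal scaled to the 75th percentile, 12 of them were called higher and 2 lower. Peroxisomal oxidation was divided, 10 higher and 5 lower of 27, with Acot1 (-1.81) and Acaa1b (0.69) at the ends.

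The respiratory chain was called higher in nearly every subunit, by little. In complex I, 34 of 36 nuclear-encoded subunits and assembly partners of the list rose and 0 fell. For 3 of those that rose, another probe was called lower, and with values recomputed from the scanner files 31 rose and 1 fell. KO and WT arrays did not overlap in 27 of the 36, where 16.7% of all genes did not. The median was 0.30 and only Ndufs7 (0.67) and Ndufb10 (0.63) reached 1.5-fold. Ndufs7 lay between 16.08 and 16.43 (median 16.18) on the WT arrays and between 16.63 and 16.97 (median 16.93) on the KO arrays (log2 fold change 0.67 ± 0.05 (SE), adjusted p = 4.07e-12) and Ndufb10 lay between 16.32 and 16.66 (median 16.54) on the WT arrays and between 17.06 and 17.23 (median 17.18) on the KO arrays (log2 fold change 0.63 ± 0.04 (SE), adjusted p = 9.20e-14). In complexes III, IV and V 29 of 35 rose and 2 fell, Atp5g3 (-0.30) and Atp5j (-0.12). Such small shifts leaned on the scaling: with the processed signal 19 complex I genes and 13 of the other complexes were called higher, and the medians were 0.14 and 0.12. In the list of TCA cycle and shuttle genes 16 of 24 rose and 3 fell, with a lowest log2 fold change of -1.73. Of the list, 2 members followed the muscle or liver markers. With the processed signal 12 were called higher and 3 lower. The largest increase was that of the NADP-dependent isocitrate dehydrogenase Idh2, which lay between 14.75 and 15.21 (median 14.83) on the WT arrays and between 15.93 and 16.22 (median 16.07) on the KO arrays (log2 fold change 1.19 ± 0.08 (SE), adjusted p = 2.08e-14). 

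Regulators of mitochondrial content were less uniform. Ppargc1a, the coactivator that drives mitochondrial genes, lay between 11.94 and 13.17 (median 12.51) on the WT arrays and between 13.38 and 13.96 (median 13.66) on the KO arrays (log2 fold change 1.15 ± 0.18 (SE), adjusted p = 3.26e-06), and Esrrb (0.99), Perm1 (0.65) and the mitochondrial polymerase Polg (0.49) rose with it. Tfam (0.12), Nrf1 (0.06), Esrra (0.00) and Ppargc1b (0.16) were not called, and Gabpa fell (-0.40).

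**Figure D3:**
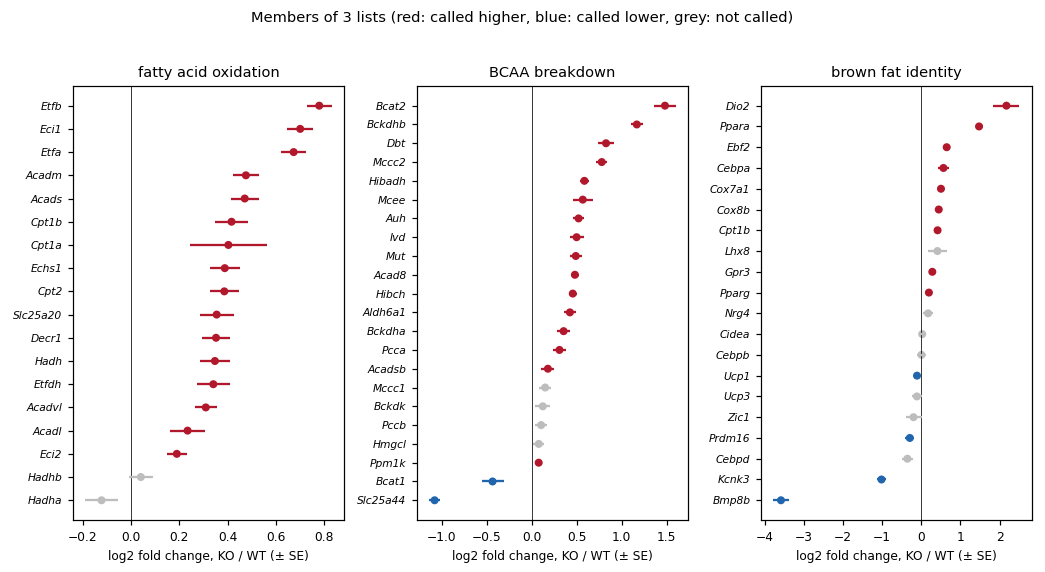
Log2 fold change of KO over WT (points) ± 1 SE (lines) for each measured member of fatty acid oxidation, branched-chain amino acid (BCAA) breakdown and brown fat identity. In the first list 16 of 18 genes were called higher and in the BCAA list 16 of 22, whereas brown fat identity ran from -3.59 for Bmp8b to 2.18 for Dio2.

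Genes of brown fat identity and heat production did not move together. Of 20, 9 were called higher and 4 lower, or 2 lower with normexp background correction and also with slide as a block. Dio2, the deiodinase that makes active thyroid hormone in brown fat, lay between 12.18 and 13.78 (median 12.99) on the WT arrays and between 14.96 and 15.59 (median 15.18) on the KO arrays (log2 fold change 2.18 ± 0.33 (SE), adjusted p = 2.67e-06). The nuclear receptor Ppara lay between 12.68 and 13.34 (median 13.04) on the WT arrays and between 14.21 and 14.82 (median 14.49) on the KO arrays (log2 fold change 1.48 ± 0.09 (SE), adjusted p = 7.82e-15). In the other direction, Bmp8b, a secreted factor of active brown fat, lay between 7.85 and 9.31 (median 8.19) on the WT arrays and between 4.54 and 5.26 (median 4.74) on the KO arrays (log2 fold change -3.59 ± 0.20 (SE), adjusted p = 4.73e-16), with 4 of 8 KO arrays well above background. These 3 genes had no overlap between genotypes, yet their directions differed. Kcnk3 fell (-1.02), Ebf2 (0.65), Cebpa (0.57), Cox7a1 (0.50) and Cox8b (0.45) rose, and Cidea (0.02) and Zic1 (-0.20) were not called. Ucp1 was called lower (-0.11, adjusted p = 0.0323), but its log2 fold change was 0.10 with the processed signal. With slide as a block its adjusted p was 0.476, so that no direction is read from this call. Among genes of alternative heat cycles, creatine kinase Ckb (2.74), the calcium release channel Ryr2 (1.88) and the calcium pump Atp2a2 (0.69) rose, and the phosphatase Alpl (-1.06) and Gatm (-0.49) fell. Ckb lay between 9.46 and 10.13 (median 9.69) on the WT arrays and between 11.86 and 12.99 (median 12.44) on the KO arrays, with all KO arrays higher.

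Breakdown of branched-chain amino acids rose with oxidation, 16 genes higher and 2 lower of 22 (median 0.44). The mitochondrial transaminase Bcat2, which starts the breakdown, lay between 10.72 and 11.62 (median 11.09) on the WT arrays and between 12.12 and 12.96 (median 12.50) on the KO arrays (log2 fold change 1.48 ± 0.12 (SE), adjusted p = 4.56e-12). Bckdhb, a subunit of the branched-chain ketoacid dehydrogenase, lay between 13.61 and 14.14 (median 14.01) on the WT arrays and between 14.99 and 15.26 (median 15.14) on the KO arrays (log2 fold change 1.17 ± 0.06 (SE), adjusted p = 4.36e-16). Dbt (0.83), Mccc2 (0.78), Hibadh (0.59) and Ivd (0.50) rose as well. Slc25a44, the mitochondrial carrier of these amino acids, went the other way (-1.08 ± 0.06 (SE), adjusted p = 3.61e-16), and so did the cytosolic transaminase Bcat1 (-0.43), for which another probe was called in the opposite direction.

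Serine synthesis and folate metabolism held some of the clearest single increases, with 9 of 17 genes higher and 3 lower. Phgdh, the enzyme that opens serine synthesis from a glycolytic intermediate, lay between 10.18 and 11.23 (median 10.86) on the WT arrays and between 12.87 and 13.43 (median 13.28) on the KO arrays (log2 fold change 2.43 ± 0.16 (SE), adjusted p = 6.32e-14). Shmt1, the cytosolic serine hydroxymethyltransferase, lay between 6.51 and 7.67 (median 7.37) on the WT arrays and between 7.96 and 9.73 (median 9.05) on the KO arrays (log2 fold change 1.70 ± 0.17 (SE), adjusted p = 7.63e-10). Psat1, the next enzyme of serine synthesis, rose (0.86), but the last enzyme, Psph, fell (-0.75). Cytosolic Aldh1l1 (1.04) rose while mitochondrial Mthfd2 (-0.51) and Mthfd2l (-0.36) fell, and Gcsh of the glycine cleavage system rose (0.98).

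The targets of the amino acid response factor ATF4 were divided, 9 higher and 3 lower of 21. Cth, which makes cysteine, lay between 6.27 and 7.80 (median 6.42) on the WT arrays and between 8.0 and 9.30 (median 8.30) on the KO arrays (log2 fold change 1.78 ± 0.32 (SE), adjusted p = 2.74e-05). Asparagine synthetase Asns (1.36) and Sesn2 (1.25) rose. The hormone Gdf15 rose by 2.22 on the log2 scale, with overlapping groups (7.14 to 8.56 (median 7.72) in WT and 8.36 to 11.61 (median 10.11) in KO), whereas the hormone Fgf21 lay between 8.13 and 9.42 (median 8.68) on the WT arrays and between 5.88 and 6.88 (median 6.32) on the KO arrays (log2 fold change -2.42 ± 0.28 (SE), adjusted p = 1.15e-08). Atf4 itself (0.14), Ddit3 (0.34), Trib3 (0.04) and Chac1 (0.03) were not called, nor were 13 of 20 aminoacyl-tRNA synthetases.

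**Figure D4:**
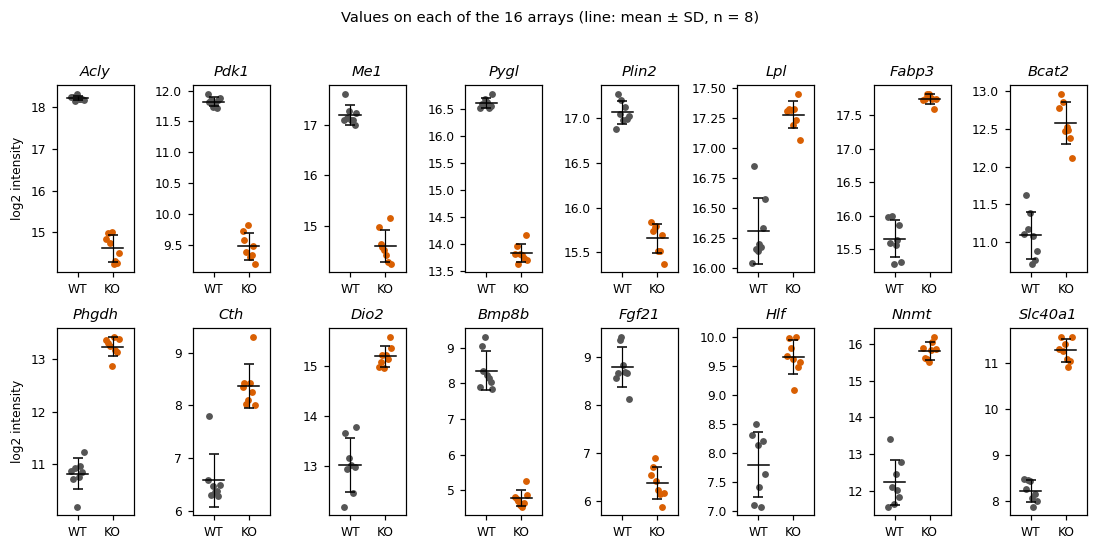
Log2 intensity of 16 genes on each of the 8 WT and 8 KO arrays (points), with the mean and SD of each group (bars); each panel has its own axis, which does not start at 0. For all of them the genotypes are apart, from Acly (KO at most 15.01, WT at least 18.15) to Slc40a1 (KO at least 10.91, WT at most 8.49).

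Output genes of the circadian clock rose. Of 13 genes of its repressor arm and of the PAR bZIP family, 10 rose and 1 fell, with a median of 0.73. Hlf, a PAR bZIP factor, lay between 7.07 and 8.50 (median 7.88) on the WT arrays and between 9.09 and 10.01 (median 9.64) on the KO arrays (log2 fold change 1.86 ± 0.23 (SE), adjusted p = 5.52e-08). Per2 lay between 9.01 and 10.30 (median 9.56) on the WT arrays and between 10.97 and 11.35 (median 11.16) on the KO arrays (log2 fold change 1.55 ± 0.20 (SE), adjusted p = 1.17e-07), and Per3 reached 1.5 and Dbp 1.62. The repressor Bhlhe40 fell instead (-1.09). In the opposing arm 3 of 7 genes fell and 1, Nfil3 (1.39), rose, with a median of -0.12 and a lowest value of -1.37. Arntl (-0.12) and Npas2 (-0.04) were not called. With slide as a block, 5 of the repressor arm were called higher, and Dbp was not (adjusted p = 0.102). The hour at which tissue was taken was not analysed here, so that genotype and hour could not be separated.

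Signalling and transcription factors changed in selected members. In the insulin pathway Grb14, an adaptor that inhibits the insulin receptor, lay between 11.04 and 12.39 (median 11.93) on the WT arrays and between 13.52 and 13.72 (median 13.60) on the KO arrays (log2 fold change 1.74 ± 0.14 (SE), adjusted p = 3.98e-12), Irs2 rose (1.03) and Irs1 (-0.66) and Pik3cb (-0.78) fell. The receptor Insr (-0.04) and the kinases Akt1 (0.02) and Akt2 (-0.07) were not called, and neither were 13 of 23 genes of the list as a whole. The β-adrenergic receptors Adrb1 (0.18) and Adrb3 (-0.04) were not called, and over the adrenergic and cAMP list 14 of 33 genes rose and 4 fell. Adcy10, a soluble adenylyl cyclase, lay between 11.24 and 12.02 (median 11.48) on the WT arrays and between 5.57 and 8.18 (median 6.21) on the KO arrays, without overlap (log2 fold change -5.13 ± 0.27 (SE), adjusted p = 1.32e-16). Nr4a2 (-0.69), Adcy7 (-0.47) and Prkar2a (-0.25) fell too, whereas Gnas (0.41), Prkar1a (0.43), Adcy5 (0.73) and the phosphodiesterases Pde3b (0.64) and Pde4b (0.66) rose. Of 22 adipose transcription factors 11 rose and 1 fell, Klf5 (-0.53). Klf15, a glucocorticoid-responsive factor, lay between 9.85 and 10.90 (median 10.20) on the WT arrays and between 11.20 and 13.05 (median 11.73) on the KO arrays (log2 fold change 1.5 ± 0.23 (SE), adjusted p = 2.43e-06), and Klf9 (0.85) and the glucocorticoid receptor Nr3c1 (0.75) rose. Among secreted factors, Fgf9 (1.96), Apln (1.07), Inhbb (1.04), Nampt (0.97) and adiponectin, Adipoq (0.71), rose. Fgf9 lay between 6.28 and 7.04 (median 6.58) on the WT arrays and between 7.75 and 9.28 (median 8.64) on the KO arrays, without overlap. In the WNT list the R-spondin Rspo4, above background on 8 of 8 WT arrays but 0 of 8 KO arrays, was at least 7.54-fold lower in KO (adjusted p = 9.39e-14), whereas the receptors Fzd4 (1.58) and Lgr6 (1.22) rose.

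Enzymes that handle foreign compounds and oxidants showed large changes of both signs. Of 22 cytochrome P450 genes 7 rose and 4 fell, and 4 of the list followed the muscle or liver markers. Cyp2b10 lay between 7.45 and 10.03 (median 8.18) on the WT arrays and between 11.68 and 13.04 (median 12.22) on the KO arrays (log2 fold change 3.87 ± 0.43 (SE), adjusted p = 7.22e-09) and Cyp2b9 rose by 3.71 on the log2 scale, both without overlap. Cyp2e1 rose by 2.49 on the log2 scale with overlapping groups, and Cyp4b1 (-0.91) and Cyp2d22 (-0.86) fell. Ephx1, the microsomal epoxide hydrolase, lay between 13.59 and 14.06 (median 13.81) on the WT arrays and between 11.74 and 12.66 (median 11.91) on the KO arrays (log2 fold change -1.85 ± 0.13 (SE), adjusted p = 1.15e-13). Gstz1 (1.12), Gstt1 (0.99), Gstk1 (0.77) and Ephx2 (0.72) rose, and over all conjugation enzymes 12 rose and 8 fell of 26. In glutathione metabolism the synthetase Gss lay between 10.61 and 11.34 (median 11.08) on the WT arrays and between 12.85 and 13.20 (median 12.98) on the KO arrays (log2 fold change 1.95 ± 0.15 (SE), adjusted p = 3.09e-12), while Gclm (-0.90) and Gsr (-0.58) fell. Maff, a small Maf factor, fell in total ChREBP KO (-2.38 ± 0.20 (SE), adjusted p = 1.62e-11) and also in ChREBPβ KO (-1.96).

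Of 16 iron genes 6 rose and 4 fell, with a median of 0.00. The iron exporter Slc40a1, ferroportin, lay between 7.88 and 8.49 (median 8.21) on the WT arrays and between 10.91 and 11.56 (median 11.28) on the KO arrays (log2 fold change 3.05 ± 0.12 (SE), adjusted p = 4.88e-20), and the oxidase Heph (1.12), which works with it, rose. The transferrin receptor Tfrc, which brings iron in, fell (-1.23), as did ceruloplasmin, Cp (-1.25), while the ferritin heavy chain Fth1 was not called (-0.02). The largest change of the list was that of Hephl1, a further copper oxidase, which lay between 9.48 and 11.40 (median 10.47) on the WT arrays and between 4.19 and 6.45 (median 4.72) on the KO arrays, with 3 of 8 KO arrays well above background (log2 fold change -5.65 ± 0.34 (SE), adjusted p = 4.73e-15).

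Genes of protein quality control showed mostly small changes. Of 33 proteasome genes 15 fell and 4 rose, none by 1.5-fold, with Psmd14 (-0.58 ± 0.05 (SE), adjusted p = 5.99e-11) as the largest change and its groups apart. With the processed signal 23 fell and 0 rose, and with slide as a block 16 and 0. In the endoplasmic reticulum Derl1 lay between 13.59 and 13.89 (median 13.69) on the WT arrays and between 11.56 and 11.87 (median 11.65) on the KO arrays (log2 fold change -2.05 ± 0.07 (SE), adjusted p = 3.21e-21). Over the whole list of chaperone and stress genes 10 of 26 fell, Derl1 included, 6 rose and 10 were not called, among them Xbp1 (-0.08), Hsp90b1 (-0.09) and Hyou1 (-0.06). Lysosomal genes were divided, with Npc2 (-0.51), Ctsd (-0.37) and Ctsb (-0.27) lower and Gabarapl1 (0.57), Tfeb (0.42) and Ctsa (0.31) higher.

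Macrophage markers were lower. Of 14 measured, 12 fell and 0 rose, 11 by at least 1.5-fold, against 5.3% over all genes, and the median was -0.81. The mean of the list lay between 9.73 and 10.52 in WT and between 9.22 and 9.56 in KO, without overlap. Clec10a, a lectin of tissue macrophages, lay between 9.57 and 10.82 (median 10.29) on the WT arrays and between 8.85 and 9.34 (median 8.98) on the KO arrays (log2 fold change -1.17 ± 0.16 (SE), adjusted p = 3.12e-07), and the mannose receptor Mrc1 lay between 8.72 and 9.73 (median 9.32) on the WT arrays and between 8.05 and 8.46 (median 8.22) on the KO arrays (log2 fold change -1.04 ± 0.13 (SE), adjusted p = 9.68e-08). Cd163 (-0.99), the complement genes C1qa (-0.90), C1qb (-0.82) and C1qc (-0.85) and the receptor Csf1r (-0.54) fell, and Itgam (-0.02) and Cd14 (-0.21) were not called. In whole tissue, fewer macrophages and less of these RNAs per macrophage cannot be told apart. Among the other cell markers, general adipocyte markers rose in 6 of 8 (median 0.26) and lymphocyte markers in 3 of 9. Endothelial markers fell in 6 of 13 (median -0.17), or in 2 with slide as a block, and fibroblast and mesothelial markers in 3 of 6. Of the 10 brown adipocyte markers 3 were called higher and 4 lower, Ucp1 among the latter. Their mean was lower, 13.77 to 13.97 in WT and 13.44 to 13.66 in KO, with Elovl3 (-3.16) as the largest change. The median of these markers was only -0.04, and 0.11 with the processed signal, so the lower mean does not describe them as a set. Of the 10 Schwann cell and nerve markers 7 were not called, 1 rose and 2 fell, near the 21.3% of all genes that were lower. Those 2 were Th (-0.77), the enzyme of catecholamine synthesis, and Cnp (-0.72).

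Interferon-response and matrix genes were lower alongside the macrophage markers. Of 26 interferon-response genes 13 fell and 4 rose (median -0.36). Rtp4 lay between 10.12 and 11.11 (median 10.34) on the WT arrays and between 8.87 and 9.48 (median 9.11) on the KO arrays (log2 fold change -1.32 ± 0.15 (SE), adjusted p = 1.67e-08), and Oas1a (-1.23), Oasl2 (-1.13) and Irf7 (-0.88) fell, while Isg15 was not called (-0.36). In the collagen and matrix list 21 of 45 genes fell and 8 rose. The fibrillar collagens Col1a1 (11.11 to 13.76 (median 12.50) in WT and 11.07 to 11.44 (median 11.32) in KO, overlapping, log2 fold change -1.09 ± 0.24 (SE), adjusted p = 3.55e-04) and Col3a1 (-0.61) fell, as did Fn1 (-0.90) and Lox (-0.68). The 8 that rose were Lamb1 (0.96), Nid2 (0.77), Timp4 (0.52), Col4a1 (0.41), Col15a1 (0.37), Lama5 (0.36), Col4a2 (0.23) and Lamc1 (0.22). WT arrays were widely spread in both lists, and with slide as a block 13 matrix genes were called lower in place of 21. The mesothelial and fibroblast markers Dpp4 (-0.72), Pdgfra (-0.57) and Pdgfrb (-0.28) fell beside the matrix genes, and the part of macrophages and fibroblasts in these changes was not tested.

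**Figure D5:**
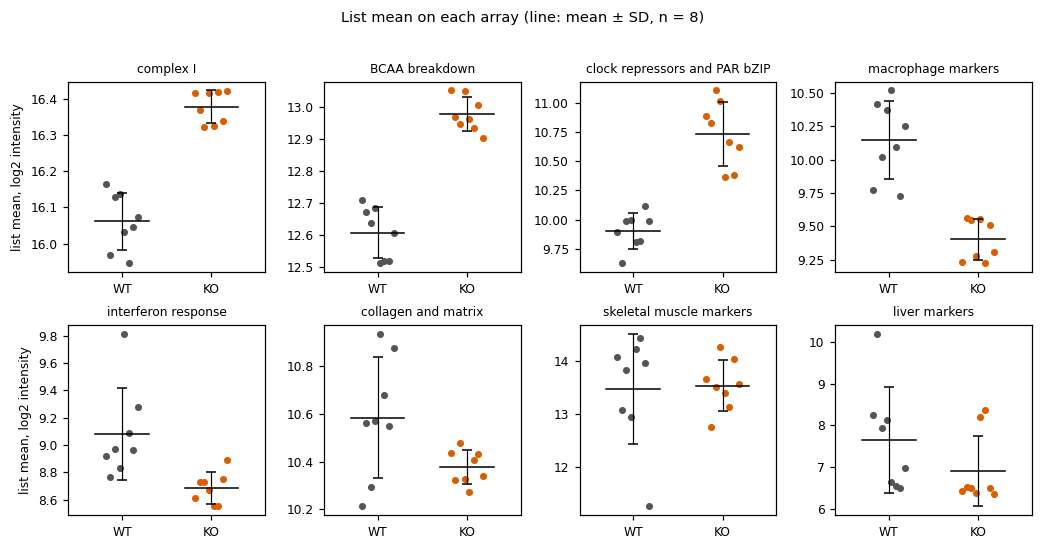
Mean log2 intensity over the measured members of 8 lists on each array (points; bars are the mean and SD of 8 arrays). The genotypes are apart for complex I, BCAA breakdown, the clock repressors and the macrophage markers (KO 9.22 to 9.56, WT 9.73 to 10.52) and overlap for the other lists, muscle and liver included.

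Grouped by symbol, 204 families by their letters and 42 subfamilies were counted, and those given next were picked for their share of calls. All 10 Ndufb genes, 9 of 13 genes of the mitochondrial import complex (Timm), 28 of 48 Mrpl and 18 of 29 Mrps genes of the mitochondrial ribosome were called higher, with medians between 0.18 and 0.27. Histone genes rose in 27 of 50 and fell in 9. Their near-identical sequences let probes share targets, so that single histone genes are uncertain. Decreases led among the clustered protocadherins Pcdhb (10 of 14, median -0.28), the Galnt glycosyltransferases (7 of 14), the Stard lipid carriers (7 of 10, Stard10 at -1.77), the Mmp proteases (7 of 14) and the Ms4a family of membrane proteins of immune cells (6 of 12, Ms4a7 at -0.86).

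Large changes outside the lists spanned unrelated functions. Sorcs2, a sortilin-related receptor, lay between 12.86 and 13.54 (median 12.98) on the WT arrays and between 6.0 and 6.38 (median 6.13) on the KO arrays (log2 fold change -6.92 ± 0.10 (SE), adjusted p = 1.59e-31), and Atp4b, a subunit of the gastric proton pump, fell by 5.90 on the log2 scale. Both sizes depended on the setting. Over the alternatives run, Sorcs2 ranged from -7.39 to -3.92 and Atp4b from -7.25 to -2.19. Kit, the receptor of stem cell factor, lay between 10.57 and 11.06 (median 10.81) on the WT arrays and between 6.30 and 7.01 (median 6.58) on the KO arrays (log2 fold change -4.15 ± 0.12 (SE), adjusted p = 2.45e-23). Pth1r, the parathyroid hormone receptor, lay between 12.22 and 12.72 (median 12.53) on the WT arrays and between 8.11 and 8.66 (median 8.49) on the KO arrays (log2 fold change -4.07 ± 0.10 (SE), adjusted p = 6.74e-25). The proton channel Hvcn1 (-3.75) fell to a like extent, as did Ttc25 (-5.12), Prune2 (-3.76) and Dixdc1 (-3.91, with 3 of 8 KO arrays well above background). The brightest Aim1l probe rose above background on 0 of 8 KO arrays against 8 of 8 WT arrays and was at least 12.4-fold lower (adjusted p = 3.37e-14). Keeping only probes above background on all 16 arrays left this probe out. The log2 fold change of Aim1l was then -0.20, from another of its 3 probes, so the probes disagreed in size.

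In the other direction, the esterase Pon1 lay between 7.53 and 8.92 (median 8.18) on the WT arrays and between 12.64 and 13.27 (median 12.88) on the KO arrays (log2 fold change 4.72 ± 0.21 (SE), adjusted p = 3.10e-18), and the potassium channel Kcnc2 rose by 3.66 on the log2 scale. Nnmt, which methylates nicotinamide, lay between 11.56 and 13.40 (median 12.06) on the WT arrays and between 15.51 and 16.21 (median 15.86) on the KO arrays (log2 fold change 3.60 ± 0.21 (SE), adjusted p = 2.07e-15). Mfsd2a, a carrier of lysophospholipids, lay between 7.49 and 10.13 (median 8.92) on the WT arrays and between 11.35 and 12.46 (median 12.09) on the KO arrays (log2 fold change 3.11 ± 0.33 (SE), adjusted p = 3.14e-09), and its WT arrays were widely spread. Gmpr, which turns GMP into IMP, lay between 9.49 and 10.49 (median 9.90) on the WT arrays and between 12.28 and 13.47 (median 12.87) on the KO arrays (log2 fold change 3.00 ± 0.25 (SE), adjusted p = 1.33e-11). Carbonic anhydrase Car14 (2.84), Magel2 (2.73) and the neuropeptide receptor Vipr2 (2.95, between 1.53 and 3.41 over the alternatives run) rose. So did the gene listed as Lppr4 (3.53), Gstt4 (3.03) and the proton pump subunit Atp6v1c2 (3.07). The last 2 genes were each well above background on 5 of 8 WT arrays. In all of them the genotypes were apart.

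Promoters of the genes that moved were searched on both strands, from 250 bases before to 50 bases after the start site, for a ChoRE-like motif (a pair of degenerate E boxes 5 bases apart, the arrangement ChREBP and Mlx are known to bind), the E box CACGTG and an SRE-like motif (TCACNCCAC). The table gave a promoter for 13931 of 24521 genes (RefSeq, GRCm38.p6). The ChoRE-like motif was in 0.747% of all these genes, in 5 of 760 (0.658%) that fell by at least 1.5-fold and in 6 of 748 (0.802%) that rose. The E box was in 10.5% of all, 12.8% of those that fell and 10.7% of those that rose, and among the 67 that fell at least 4-fold it was in 13 (19.4%), against 2 of 33 (6.06%) that rose as much. The ChoRE-like motif was in 0 of either. The SRE-like motif was in 1.36% of all, 1.32% of those that fell and 1.20% of those that rose. A match describes letters only. The stretches below show this match, in capitals, in the promoters of a pair of genes that fell, Mlph (-1.96) and the glycogen branching enzyme Gbe1 (-1.66), and of a pair that rose, Pde4b (0.66) and Gstz1 (1.12). All read 5′ to 3′ on the gene's strand, which is the plus strand.
Mlph, chr1:90915035-90915063: gcgggtCAGGAGTAGCCCACGTGatctga
Gbe1, chr16:70313950-70313978: gggctcCAGGGGCCGGCCCCGTGagtggg
Pde4b, chr4:102421484-102421512: acacccCACGGGAGGCTCTCATGctgatt
Gstz1, chr12:87146915-87146939: gaCATGAGGACAACTCCTGcaaact

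Loss of the β isoform alone left most of these lists near their WT level. In ChREBPβ KO the median was -0.15 for fatty acid synthesis (4 of 20 called lower), -0.16 for cholesterol synthesis (2 of 18), 0.02 for complex I and -0.08 for the macrophage markers. That line has its own WT littermates, and 2.74% of all genes were called in it. The difference between the KO effects was tested in the same limma model and was called for 25.4% of all genes. It was called for 15 of 20 genes of fatty acid synthesis, 14 of 18 of cholesterol synthesis, 29 of 36 of complex I, 14 of 22 of branched-chain amino acid breakdown and 7 of 14 macrophage markers. For Acly the log2 fold change was -0.13 in the ChREBPβ line and -3.61 in the total line (adjusted p of the difference = 1.29e-20), for Pygl -0.25 and -2.77 (1.29e-20), for Bcat2 0.18 and 1.48 (3.80e-07) and for Phgdh 0.93 and 2.43 (7.84e-06). Dio2 was an exception, with 1.09 and 2.18, where the difference was not called (adjusted p = 0.0959).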

How the data were processed

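The files hold brown adipose tissue of mice, 32 samples in 4 groups of 8, assigned from the sample titles, hybridised to single-colour Agilent arrays. The deposited values were log2 intensities that the authors made from median pixel intensities by keeping spots that passed weights on 26 of 32 arrays or on 6 of a group, quantile normalizing, and taking the median of replicated probes. Per array, the authors also deposited scanner output with background, mean, median and processed intensities of each spot, from Agilent Feature Extraction 10.10.1.1, which the submitters' processing notes name together with limma. The value table has 37304 probes and 24521 gene names, joined by probe name. It lacks 48 values, 1 in each of 48 probes, which were fitted on the remaining arrays. The table was recomputed from the scanner files with a mean absolute difference of 0.0113 (log2). No column was left unused.

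Each probe was fitted with limma 3.58.1 (lmFit and eBayes, R 4.3.3) on all 32 arrays with 4 group means, two-sided, with Benjamini-Hochberg adjustment over all probes. A call is an adjusted p under 0.05, and a gene stands for its brightest probe (8130 genes had several probes, and in 479 of them probes were called both ways). The number of arrays and, for dim probes, the background limit the precision. Where all arrays of a group were below background, the fold is a lower bound: the bright group's mean was set against a floor, for each array the lowest signal still above background or the probe's own signal if that was higher. The script was tested on simulated data.

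The members and the 57 lists of genes (1061 symbols, 1025 measured) were chosen with earlier results of these data known, so their counts are descriptions and no set was tested. Beyond lists, genes were named by rule: the 15 largest increases and 15 largest decreases among called genes that carry a symbol, had 8 of 8 KO arrays on 1 side of the mean of the WT group and 8 arrays of at least 1 group well above background, apart from muscle and liver transcripts. A gene chosen by this rule and some list members are not reported here. Within lists every member may be named, and ranges over arrays are given for the 1 to 3 largest such changes. Ranges for Ucp1, Lpl and Fgf9 and the promoter stretch of Mlph were added after their values were seen. Alternatives were the recomputed values, the processed signal minus its 75th percentile, normexp (offset 50), dim-probe filters, wash batch, slide or replicate number as a block, the 16 arrays alone, array weights, muscle and liver list means as covariates, other probe summaries, a stricter threshold, and each array left out. Wash batch was taken from the labels and slide from the names of the scanner files. Promoters came from RefSeq (GRCm38.p6) and were matched by symbol, while probe positions are on mm9 as the files give them.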

Additional observations from a re-analysis of the deposited data

Results flagged for a closer look

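Within groups of 8 arrays, 66 sets of values were checked for a lone array, and 8 had one whose gap to its nearest neighbour exceeded the critical value of Dixon's test at the 95% level, where chance gives about 1 in 20. The muscle and liver marker means gave 2 of them. The muscle marker mean of WT replicate 8 was 11.26 against 12.95 to 14.44 on the other WT arrays (gap over range 0.533), and the liver marker mean of WT replicate 2 was 10.20 against 6.49 to 8.25 (0.527, unrounded 0.52655). The same WT replicate 2 stood apart for Adcy10 (12.02 against 11.24 to 11.61, 0.527, unrounded 0.527494) and for Prune2 (10.50 against 11.17 to 11.69, 0.561). KO replicate 7 stood apart for Hephl1 (6.45 against 4.19 to 5.08, 0.608), Dixdc1 (4.37 against 4.73 to 5.0, 0.58) and Bmp8b (5.26 against 4.54 to 4.86, 0.556), all genes near background in KO. KO replicate 4 was highest for Sorcs2 (6.38 against 6.0 to 6.18, 0.539).

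For all 30 named genes the effect of total ChREBP loss differed from that of ChREBPβ loss in limma's test of the difference. Over all genes, this test called 25.4%. Apart from Mlxipl, the named genes were picked for the size of their change in the total line, which is part of this difference. The count of 30 is therefore no separate result. The values that follow are the log2 fold change in the ChREBPβ line minus that in the total line, so that a positive value marks a deeper decrease in total ChREBP KO. Among genes that fell they were 1.0 for Mlxipl, 3.65 for Kit, 3.39 for Pth1r, 4.13 for Ttc25, 4.06 for Adcy10, 4.71 for Hephl1, 6.12 for Atp4b, 6.76 for Sorcs2, 8.99 for Slc2a5, 3.38 for Dixdc1, 4.52 for Aim1l, 3.19 for Prune2, 3.41 for Hvcn1, 3.49 for Acly and 4.11 for Bmp8b. Among genes that rose the differences were -3.73 for Pon1, -2.58 for Cyp2b10, -2.45 for Cyp2b9, -3.41 for Kcnc2, -2.70 for Nnmt, -2.45 for Lppr4, -2.81 for Mfsd2a, -2.73 for Atp6v1c2, -2.13 for Slc40a1, -2.96 for Gstt4, -2.55 for Gmpr, -1.88 for Vipr2, -2.19 for Car14, -2.22 for Ckb and -2.22 for Magel2. Several of these genes were also called in ChREBPβ KO, in the same direction. Higher there were Slc40a1 (log2 fold change 0.92), Vipr2 (1.07), Lppr4 (1.07), Pon1 (0.99), Nnmt (0.90), Car14 (0.65) and Ckb (0.53). Lower there were Mlxipl (-1.49), Adcy10 (-1.08), Ttc25 (-0.99), Pth1r (-0.68), Dixdc1 (-0.53) and Kit (-0.50).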

How the results depend on the processing

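The count of called genes, 10840, ranged from 8260 with slide as a block, which kept 7895 of the calls (72.8%), to 11528 with array weights, and was 8307 at an adjusted p under 0.01. The count at 1.5-fold or more, 2479, ranged from 1943 with normexp to 3524 with the processed signal, and Mlxipl stayed lower in each, between -2.61 with slide as a block and -1.04 over the mean of its probes. Leaving out each array in turn gave 10315 to 10898 and 2433 to 2608 genes, -2.51 to -2.46 for Mlxipl, -0.26 to 0.20 for the muscle list mean and -0.95 to -0.38 for the liver list mean. With the replicate block the counts were 10973 and 2484, and Mlxipl was -2.48. Arrays of the same number did not deviate together (correlations from -0.31 to 0.08), so the numbers were not taken as pairs. Without the WT arrays 2 and 8 together, chosen after seeing the data, the counts were 10064 and 2526. The share of calls that were higher was 51.8%, or 47.3% with the processed signal. Within wash batches the muscle list mean changed by -0.67 to 1.00 and the liver list mean by -1.57 to -0.01. The list medians kept their sign under all 36 settings in 36 of 57 lists. Counts of antigen presentation genes called lower fell from 6 to 3 without any 1 of KO replicates 4 and 6 and WT replicates 5, 6 and 8, and to 2 without WT arrays 2 and 8 together or with slide as a block. Those of endothelial markers fell from 6 to 2 with slide as a block. They fell to 3 without KO replicate 4 or WT replicate 8, without WT arrays 2 and 8 together, and at an adjusted p under 0.01. Changes of dim genes are compressed by background.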

Other observations

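Nucleotide synthesis, which no comparison above describes, held few changes: of 17 genes 4 rose, Cad (0.79), Gmps (0.51), Dhodh (0.50) and Umps (0.32), and 2 fell, Prps2 (-0.42) and Impdh1 (-0.37), with a median of 0.08. The calls of Umps and Impdh1 were lost with slide as a block (adjusted p = 0.12 and 0.2, limma). Cell cycle genes were divided, 9 lower and 5 higher of 21, from Aurka (-0.51) to Cenpa (0.75), and the proliferation marker Mki67 was not called (-0.06). Antigen presentation held small changes, 6 lower and 4 higher of 18, with H2-Aa at -0.51 and Psme1 at 0.47. Of the α-arrestins, which respond to glucose in many cells, Txnip (-0.33) and Arrdc4 (0.26) were not called and Arrdc3 rose (0.67).

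White adipose markers were few on these arrays and did not move as a list: of 7, 3 rose and 1 fell. The natriuretic peptide clearance receptor Npr3 lay between 9.87 and 11.27 (median 10.60) on the WT arrays and between 12.01 and 12.71 (median 12.29) on the KO arrays (limma log2 fold change 1.77 ± 0.14 (SE), adjusted p = 4.56e-12), and all KO arrays lay above all WT arrays. Leptin, Lep, rose by 0.30 on the log2 scale, Sncg rose (0.93), Mest fell (-0.82, not called with slide as a block) and Hoxc8 (0.37) and Hoxc9 (-0.31) were not called. Among promoters of the lists, those of lysosome and autophagy genes, picked for this share, held an E box in 11 of 25, against 10.5% of all genes tested with a promoter.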
